A study of Mus musculus with 23 samples.

Results

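Sterol synthesis genes were followed in mouse embryonic stem cells (ESCs) that had or had not received tamoxifen. The group comprised 8 genes taken by name, Hmgcs1, Idi1, Fdps, Fdft1, Sqle, Lss, Cyp51 and Insig1, out of 23363 gene names with a usable value. The rule used gene names and no measured value, the names were picked with earlier results of these data known, and tamoxifen is known to bind sterol-processing enzymes. All 8 genes passed the filter on low values (0.5 FPKM or more in 3 or more of the 6 RNA-seq samples), as did 12997 genes in all. FPKM counts sequenced fragments per kilobase of gene model, scaled to the number of mapped fragments.

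The study examined how the DNA-binding domain of KDM2B contributes to the occupancy of Polycomb complexes, and RNA-seq asked how expression changed once that domain was lost. MS12 Kdm2b fl/fl ESCs carry a floxed exon that encodes the ZF-CxxC domain, through which KDM2B binds unmethylated CpG DNA, and a tamoxifen-inducible ERT2-Cre recombinase. Both groups were these cells at passage p10-p20, grown in serum and LIF on mitomycin C inactivated mouse embryonic fibroblast feeders and then settled overnight without feeders. One group of 3 samples was labelled untreated, and the other group of 3 was labelled as treated with 800 nM 4-hydroxytamoxifen for 72 hr. Replicates were numbered 1 to 3 in each group. No group received tamoxifen without a floxed exon, so an effect of the compound and an effect of the deletion cannot be told apart.

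The labels needed a caution before any direction was read. Every one of the 6 RNA-seq files has a name with the opposite reading, in which the samples labelled untreated would be the treated ones. Groups were taken from the labels, and under the file names each difference given here would have the opposite sign and the same size. Kdm2b itself did not settle the matter, since its gene-level FPKM spans exons outside the deleted one: it was 27.0, 21.5 and 27.7 in untreated replicates 1, 2 and 3 and 19.9, 21.9 and 25.0 in tamoxifen replicates 1, 2 and 3, with overlapping groups. ESC markers were abundant, with 0 of the 8 listed genes at 0 and summed levels of 2703 to 3717 FPKM in untreated and 2982 to 5238 FPKM in tamoxifen samples. Feeder fibroblast markers summed to 103 to 281 FPKM and 125 to 227 FPKM, and in both groups replicate 1 was the lowest. The collagens Col1a1 and Col1a2 and Dcn were present in every sample, while Lum and Fap were at or near 0. Whole-file FPKM sums ran from 549379 in untreated replicate 1 to 1045707 in untreated replicate 2, and replicate 1 was again the lowest in each group.

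Cholesterol is assembled from acetyl-CoA through mevalonate, the isoprenoid farnesyl diphosphate, squalene and lanosterol. Transcription of the enzymes is driven by SREBP2, which SCAP escorts out of the endoplasmic reticulum when membrane sterol is low, whereas INSIG proteins hold the SCAP-SREBP complex back when sterol is plentiful. Because SREBP2 acts at nearly every step, the genes of the pathway commonly rise and fall together, and compounds that block late steps, such as inhibitors of the isomerase EBP or the reductase DHCR7, are commonly followed by raised pathway transcripts.

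The promoters of these genes are shown because a shared sterol-responsive promoter is the textbook basis for treating them as a set. RefSeq promoter sequences on GRCm38.p6, spanning 250 bases before to 50 bases after the annotated start, matched 5 of the 8 genes, all but Sqle, Fdps and Fdft1. They are written 5′ to 3′ on the strand of the gene, with capitals for the sterol regulatory element TCACNCCAC and for the NF-Y box CCAAT, which reads ATTGG where it lies on the other strand. The windows are chr13:119690101-119690400 on the plus strand for Hmgcs1, chr13:8885356-8885655 on the plus strand for Idi1, chr10:76531355-76531654 on the plus strand for Lss, chr5:4104648-4104947 on the minus strand for Cyp51 and chr5:28071162-28071461 on the plus strand for Insig1.
Hmgcs1: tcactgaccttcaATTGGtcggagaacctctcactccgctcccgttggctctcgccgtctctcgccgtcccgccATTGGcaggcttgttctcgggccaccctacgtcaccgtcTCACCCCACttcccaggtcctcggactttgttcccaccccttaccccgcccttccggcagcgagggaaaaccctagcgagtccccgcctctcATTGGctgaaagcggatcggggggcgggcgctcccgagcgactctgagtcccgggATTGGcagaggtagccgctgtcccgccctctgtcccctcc
Idi1: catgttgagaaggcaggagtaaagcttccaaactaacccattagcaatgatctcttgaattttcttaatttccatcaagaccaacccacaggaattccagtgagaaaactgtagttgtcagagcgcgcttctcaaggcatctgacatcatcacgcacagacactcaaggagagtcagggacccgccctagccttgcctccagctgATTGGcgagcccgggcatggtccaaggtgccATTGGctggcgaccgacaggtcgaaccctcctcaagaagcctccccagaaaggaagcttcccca
Lss: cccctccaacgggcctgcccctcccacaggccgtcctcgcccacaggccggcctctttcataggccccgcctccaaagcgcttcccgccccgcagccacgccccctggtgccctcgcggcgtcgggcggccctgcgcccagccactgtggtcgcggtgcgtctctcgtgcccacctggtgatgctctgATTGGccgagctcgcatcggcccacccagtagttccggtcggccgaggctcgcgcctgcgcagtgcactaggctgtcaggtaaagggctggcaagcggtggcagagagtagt
Cyp51: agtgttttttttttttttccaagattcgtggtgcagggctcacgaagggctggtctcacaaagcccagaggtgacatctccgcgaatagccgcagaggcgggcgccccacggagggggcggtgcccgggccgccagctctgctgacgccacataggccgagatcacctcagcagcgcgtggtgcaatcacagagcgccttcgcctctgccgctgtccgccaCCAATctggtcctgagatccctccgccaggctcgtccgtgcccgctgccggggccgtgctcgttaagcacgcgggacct
Insig1: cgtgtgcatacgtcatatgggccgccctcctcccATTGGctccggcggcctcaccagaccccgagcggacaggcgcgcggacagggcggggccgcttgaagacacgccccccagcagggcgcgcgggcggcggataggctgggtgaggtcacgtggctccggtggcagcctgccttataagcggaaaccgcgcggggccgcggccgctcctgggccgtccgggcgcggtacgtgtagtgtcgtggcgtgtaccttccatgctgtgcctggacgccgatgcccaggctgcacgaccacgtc

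Both strands were searched for 4 sets of letters in these windows and in all 32851 promoters of the same length. The NF-Y box, a binding motif of a common SREBP partner, was found in 5 of 5 promoters against 37.4% of all promoters. The Sp1 GC box GGGCGG, which is not capitalised above, was likewise found in 5 of 5, against 35.7%. A sterol regulatory element in this spelling was found in Hmgcs1 alone, with its first base at position -137, and in 1.24% of all promoters. The E-box CACGTG occurred once, at position -101 of Insig1, and in 7.15% of all promoters. GC content was 52.3% in the Idi1 window and 64.7% to 71.7% in the other 4. Positions count the annotated start as 0, no match overlaps another, and a match of letters is a description of the window.

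**Figure D1:**
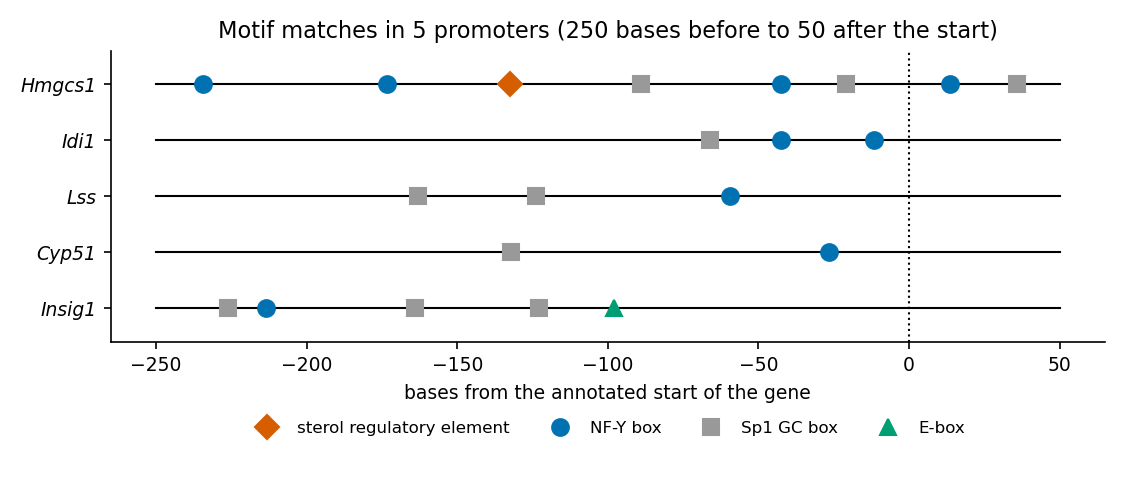
Position of each motif match, in bases from the annotated start of the gene, in the 5 promoters that the RefSeq table held. The horizontal lines are the 300-base windows and the dotted line is the start. NF-Y and GC boxes occur in every window. The only match to TCACNCCAC, the spelling of the sterol regulatory element that was searched, lies in Hmgcs1. Other spellings were not searched.

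At the level of the whole set, samples labelled tamoxifen had slightly higher values for 7 of the 8 genes. Of all tested genes 47.2% had a log2 fold change above 0, and of those with a mean of at least 20 FPKM 64.1% did. The test called none of the 8 without a term for the replicate number and Fdps alone with it. Mean FPKM over the 6 samples ranged from 23.0 for Lss to 97.8 for Hmgcs1. Groups were compared with limma on log2(FPKM + 0.1), a scale that barely shrinks differences at these levels, with Benjamini-Hochberg adjustment over all 12997 genes. Without a term for the replicate number, 0 of 8 genes were called higher and 0 were called lower, where 0.0231% of all tested genes were called higher and 0.00769% lower. The adjusted p of all 8 genes was 0.999, the smallest unadjusted p was 0.215 for Fdps, and 623 of the 12997 genes and 0 of the 8 had an unadjusted p under 0.05. On simulated data with planted log2 fold changes of 0.8 and 1.5 in size, this fit called 0% of the changed genes. The fit with the block called 82% and 97% of them, with 22 false calls. The simulation held 12997 genes, of which 200 were changed, in equal numbers of each size. The 22 false calls were thus a larger share of its calls than the threshold of 0.05. The simulation was built with replicate differences, which favours the block, and planted no change as small as those of the 8 genes. The lack of calls without the block says little about these genes. Samples that shared a number also shared their deviations from the group means (correlation over genes 0.54, 0.61 and 0.51 for numbers 1, 2 and 3), so the fit was repeated with the number as a block. With it, 1 of 8 genes, Fdps, was called higher and 0 lower, against 4.33% and 6.06% of all tested genes, or 563 higher and 787 lower, a split that became 430 and 336 when samples were scaled to TPM. The median standard error of the 8 log2 fold changes fell from 0.26 to 0.11 when the block was added. In bulk RNA, fewer cells of a type and less RNA per cell cannot be told apart.

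Hmgcs1 encodes the synthase that condenses acetyl-CoA and acetoacetyl-CoA to HMG-CoA. It was the most abundant of the 8, with 105, 75.0 and 98.9 FPKM in untreated replicates 1, 2 and 3 and 104, 84.5 and 119 FPKM in tamoxifen replicates 1, 2 and 3. Replicate 2 was the lowest sample of each group, and the groups overlapped. Group means were 93.1 ± 16.0 and 103 ± 17.4 FPKM (SD, n = 3), a log2 fold change of 0.14 with a 95% interval of -0.41 to 0.69 (limma without the block). With the block the interval narrowed to -0.09 to 0.36, and the adjusted p was 0.36 (limma, Benjamini-Hochberg). The gene is listed at 2 near-identical places on an unplaced mm9 sequence, chr13_random:114710-132325 and chr13_random:308620-326235, whose values were summed, and reads may have been split between them.

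Idi1 encodes isopentenyl diphosphate isomerase, which makes dimethylallyl diphosphate, and lies at chr13:8884852-8891642 (mm9). Untreated replicates 1, 2 and 3 had 43.3, 39.5 and 56.1 FPKM, and the tamoxifen replicates had 45.6, 47.0 and 69.5 FPKM. Each tamoxifen sample was above the untreated sample of its own number, by 0.07, 0.25 and 0.31 on the log2 scale, although untreated replicate 3 exceeded 2 of the tamoxifen samples. The means, 46.3 ± 8.72 and 54.0 ± 13.4 FPKM (SD, n = 3), differed by a log2 fold change of 0.21, with 95% intervals of -0.36 to 0.78 without the block and -0.01 to 0.43 with it. The adjusted p with the block was 0.18 (limma, Benjamini-Hochberg).

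Fdps encodes farnesyl diphosphate synthase, whose product feeds both squalene and protein prenylation, and lies at chr3:88897510-88905889 (mm9). It had 78.7, 46.8 and 36.9 FPKM in untreated replicates 1, 2 and 3 and 101, 62.6 and 55.7 FPKM in the tamoxifen replicates. Replicate 1 was far above replicates 2 and 3 in both groups, so the groups overlapped, yet every tamoxifen sample lay above its numbered partner. The increase within replicates 1, 2 and 3 was 28.3%, 33.9% and 50.6%. Group means were 54.1 ± 21.9 and 73.1 ± 24.4 FPKM (SD, n = 3). The log2 fold change was 0.46, at the 93.9th percentile of the tested genes, with a 95% interval of -0.32 to 1.23 without the block.

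With the replicate block, Fdps rose by a log2 fold change of 0.46 (SE 0.09, 95% interval 0.24 to 0.67), a 1.37-fold difference, with an adjusted p of 0.025 (limma, Benjamini-Hochberg). That call changed with the scale and when samples were left out. In the block fit, omitting either sample of a number removes that pair, so untreated and tamoxifen omissions are not independent checks. On these fewer samples the log2 fold change stayed between 0.39 and 0.51. Leaving out untreated or tamoxifen replicate 2 gave an adjusted p of 0.13 in either case, and leaving out replicate 3 gave 0.11. Leaving out untreated or tamoxifen replicate 1 gave 0.010 and 0.011 (limma with the block). Quantile normalization gave 0.058, scaling to TPM 0.056, a fit without the mean-variance trend 0.068 and a correction for transcript length 0.055, with the log2 fold change between 0.33 and 0.56. Among the 64 tested genes within 1 Mb on each side of Fdps, the median log2 fold change was -0.10. The block fit called 4 of the 64 higher and 6 lower, against 4.33% and 6.06% of all tested genes.

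Fdft1 encodes squalene synthase, the first enzyme committed to sterols, at chr14:63763988-63796630 (mm9). Its values were 51.4, 52.4 and 34.4 FPKM in untreated replicates 1, 2 and 3 and 61.1, 47.8 and 38.3 FPKM in the tamoxifen replicates. Replicate 3 was the lowest in both groups, and only replicate 2 was lower with tamoxifen than without. The log2 fold change of 0.09 had a 95% interval of -0.16 to 0.33 with the block and an adjusted p of 0.59 (limma, Benjamini-Hochberg). On the mm9 map 773 bases at one end are shared with the lysosomal protease gene Ctsb, which had 34.1 to 71.2 FPKM, so some fragments there could belong to either gene.

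Sqle encodes squalene epoxidase, a second control point of the pathway, at chr15:59146647-59162748 (mm9). It had 45.7, 74.0 and 45.0 FPKM in untreated replicates 1, 2 and 3 and 47.8, 68.5 and 56.3 FPKM in the tamoxifen replicates. Replicate 2 stood above the other two in each group, and within replicate 2 the difference of the tamoxifen from the untreated sample was -7.41%. The log2 fold change of 0.09 had a 95% interval of -0.52 to 0.70 without the block and -0.16 to 0.34 with it, and the adjusted p with the block was 0.60 (limma, Benjamini-Hochberg).

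Lss encodes lanosterol synthase, which closes the sterol rings, at chr10:75994372-76016679 (mm9). It was the least abundant of the 8, with 21.3, 24.3 and 16.9 FPKM in untreated replicates 1, 2 and 3 and 21.6, 30.2 and 23.5 FPKM in the tamoxifen replicates. All 3 tamoxifen samples were above their partners, by 0.02, 0.31 and 0.47 on the log2 scale, and the groups overlapped. The means were 20.9 ± 3.73 and 25.1 ± 4.49 FPKM (SD, n = 3), a log2 fold change of 0.27. With the block the 95% interval was 0.00 to 0.53 and the adjusted p was 0.17 (limma, Benjamini-Hochberg). Leaving out untreated or tamoxifen replicate 1, either of which removes the same pair, gave an adjusted p of 0.034 and 0.035 (limma with the block). A correction for transcript length gave 0.025 (limma with the block). The locus overlaps 4930483K19Rik over 8064 bases, a gene listed at 0 in all 6 samples.

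Cyp51 encodes lanosterol 14-alpha-demethylase, the target of azole antifungals in fungi, at chr5:4080674-4104697 (mm9). Untreated replicates 1, 2 and 3 had 24.6, 56.6 and 26.0 FPKM, and the tamoxifen replicates had 26.5, 43.2 and 27.3 FPKM. Replicate 2 was again the high sample of each group, and it was the only number in which the tamoxifen sample was lower. Cyp51 was the one gene with a negative log2 fold change, -0.07, with 95% intervals of -0.89 to 0.74 without the block and -0.35 to 0.21 with it and an adjusted p of 0.72 (limma with the block, Benjamini-Hochberg). The sign changed to 0.03 when samples were scaled to TPM.

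Insig1, which encodes the sterol-sensing anchor of SCAP and is itself an SREBP target, lies at chr5:28397952-28405202 (mm9). It had 53.5, 71.1 and 42.8 FPKM in untreated replicates 1, 2 and 3 and 66.0, 67.7 and 58.4 FPKM in the tamoxifen replicates. The tamoxifen samples were closer together than the untreated ones, with means of 64.0 ± 4.97 and 55.8 ± 14.3 FPKM (SD, n = 3), and they fell inside the untreated range. The log2 fold change of 0.23 had a 95% interval of -0.05 to 0.50 with the block and an adjusted p of 0.24 (limma, Benjamini-Hochberg).

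**Figure D2:**
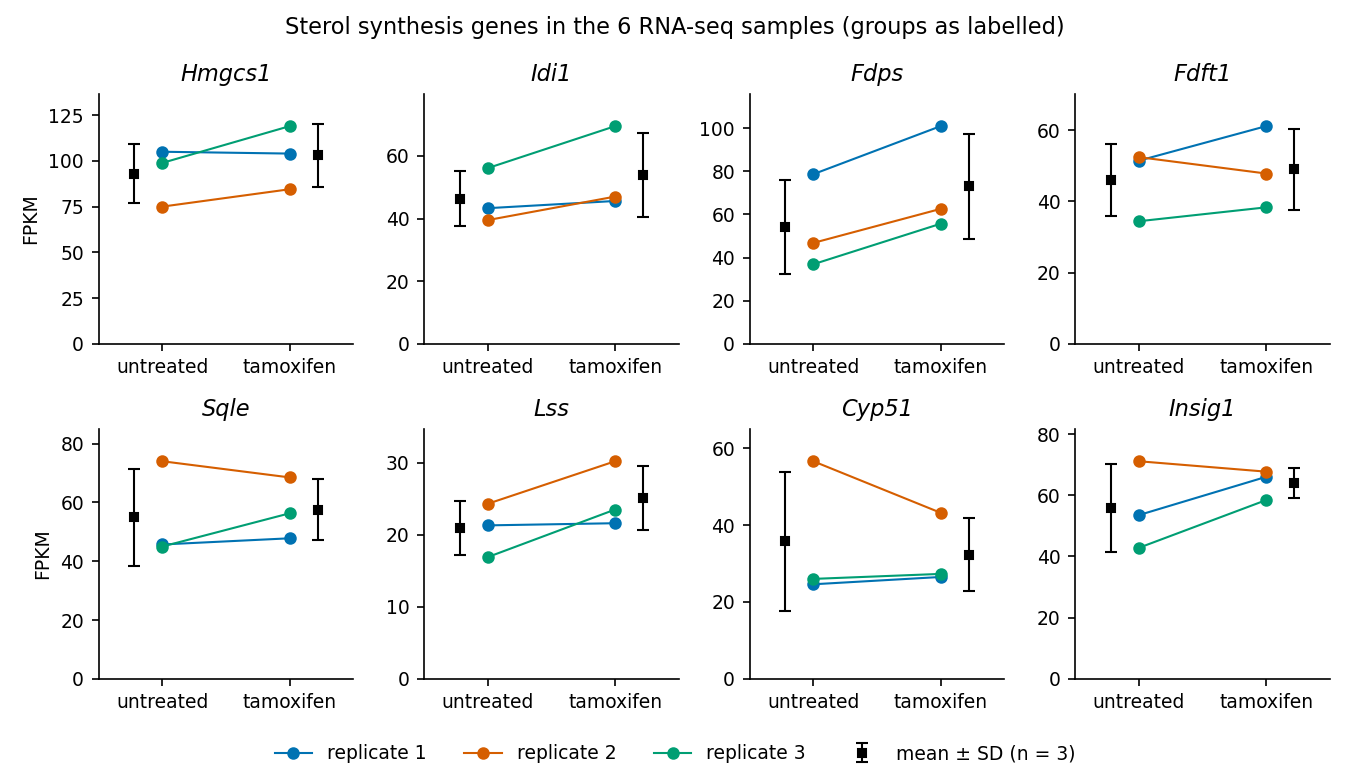
FPKM of each gene by group as labelled, with a line joining the untreated and tamoxifen samples of one replicate number. Squares and bars beside the points give the group mean ± SD (n = 3). The 3 lines of Fdps run upward from 78.7, 46.8 and 36.9 to 101, 62.6 and 55.7 FPKM, whereas replicate 2 sits apart from the other two in Sqle and Cyp51.

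Read across the set, the 8 log2 fold changes ran from -0.07 for Cyp51 to 0.46 for Fdps with a median of 0.17, where the median of all tested genes was -0.02. With samples scaled to TPM, so that each sums to the same total, all 8 were above 0 with a median of 0.28, and the median of all tested genes was 0.08. Log2 fold changes also varied with abundance. Among the 4027 tested genes with a mean of at least 20 FPKM, which all 8 genes exceed, the median was 0.08, the quartiles were -0.08 and 0.21, and 64.1% had a log2 fold change above 0. The tamoxifen sample was higher in 7 of 8 genes within replicate 1, in 4 of 8 within replicate 2 and in 8 of 8 within replicate 3. Of all tested genes 43.5%, 54.7% and 47.6% were. These shares, and those over all 3 numbers below, cover tested genes of every level. Within replicate numbers the shares at 20 FPKM or more were not counted. The mean log2 difference over the 8 genes was 0.14, 0.06 and 0.33 within replicates 1, 2 and 3. Idi1, Fdps and Lss, 3 of the 8, were higher with tamoxifen within all 3 numbers, against 24.8% of tested genes, and 0 of the 8 were lower within all 3, against 28.2%. In 0 of the 8 did every tamoxifen sample exceed every untreated sample, against 3.09% of tested genes, and in 0 did every tamoxifen sample lie below, against 5.40%. An exact permutation test of 3 against 3 samples can give no p below 0.1, and for single genes it gave 0.4 to 1.0.

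The range of the 3 mean log2 levels by replicate number exceeded the size of the treatment log2 fold change in all 8 genes. It was 1.7 times that size for Lss and 13.3 times for Cyp51. A range over 3 means tends to exceed a single difference of group means even without a replicate effect. The share of all tested genes with such a range was not counted. By limma's F-test among the 3 numbers beside treatment, 6 of the 8 genes differed (75.0%), close to the 62.8% of all tested genes that did. With TPM scaling 5 of the 8 differed, as did 8897 of the 12997 tested genes. Adjusted p (Benjamini-Hochberg) was 0.0022 for Fdps, 0.0033 for Cyp51, 0.010 for Idi1, 0.011 for Fdft1, 0.012 for Sqle and 0.023 for Hmgcs1, and 0.054 for both Insig1 and Lss. Between the highest and the lowest number, the difference in mean log2 level corresponded to 1.96-fold for Fdps, 1.93-fold for Cyp51 and 1.36-fold to 1.54-fold for the other 6.

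In FPKM the direction was not shared. Fdps and Fdft1 were highest in replicate 1, Sqle, Lss, Cyp51 and Insig1 in replicate 2, and Hmgcs1 and Idi1 in replicate 3, which are 2, 4 and 2 of the 8 where 40.2%, 27.0% and 32.8% of tested genes peaked in those numbers. Replicate 1 had the smallest FPKM sum of each group, and the order of the numbers depended on the scaling. With TPM 6 of the 8 were highest in replicate 1, as were 8699 of the 12997 tested genes. With quantile normalization 5 of the 8 were highest in replicate 2, as were 3264 of the 12997. From replicate 1 to replicate 2 the mean log2 level in FPKM differed by 0.95 for Cyp51 and 0.61 for Sqle, and by -0.72 for Fdps and -0.39 for Hmgcs1. In TPM 7 of the 8 were lower in replicate 2 than in replicate 1, as were 11109 of the 12997 tested genes. Over the 6 samples, Pearson's r between pairs of the 8 genes was above 0 for 15 of 28 pairs and below 0 for 13, with a median of 0.22. It was highest for Sqle with Cyp51 at 0.94 and lowest for Hmgcs1 with Cyp51 at -0.91, while Fdps correlated with Fdft1 at 0.78 and Hmgcs1 with Idi1 at 0.71. These correlations describe 6 samples that share replicate numbers, on the FPKM scale alone. They were not computed with TPM scaling.

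The other 15 enzymes of the mevalonate and sterol route were taken as a list to place the 8 among their neighbours. Without the block 0 of 15 were called. With it Acat2 and Mvd were called higher and 0 lower, where 4.33% and 6.06% of all tested genes were. The median log2 fold change was 0.07, with 9 values above and 6 below 0. Of all tested genes 47.2% were above 0, and of those with a mean of at least 20 FPKM 64.1% were. Acat2, the cytosolic thiolase that makes acetoacetyl-CoA, had 51.3, 33.3 and 41.5 FPKM in untreated replicates 1, 2 and 3 and 69.3, 43.3 and 52.7 FPKM in the tamoxifen replicates. It rose in the block fit by a log2 fold change of 0.38 (SE 0.09, adjusted p = 0.036, limma with Benjamini-Hochberg). Mvd, the decarboxylase that yields isopentenyl diphosphate, had 41.6, 20.2 and 19.5 FPKM untreated and 63.2, 31.5 and 23.2 FPKM with tamoxifen. Its log2 fold change was 0.49 (SE 0.11, adjusted p = 0.033, limma with the block). Both genes and Fdps act before squalene, and like Fdps both were highest in replicate 1. With quantile normalization and the block the adjusted p was 0.061 for Acat2 and 0.04 for Mvd, and with TPM and the block it was 0.13 and 0.053. Lbr, a sterol reductase of the nuclear envelope and the most abundant gene of the list, had 79.4, 177 and 76.8 FPKM untreated and 72.5, 156 and 91.8 FPKM with tamoxifen, with replicate 2 the highest in each group.

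Genes of the late steps that bind tamoxifen were examined separately. Ebp, the sterol isomerase that binds tamoxifen, had 9.75, 20.7 and 9.16 FPKM in untreated replicates 1, 2 and 3 and 17.6, 22.4 and 12.8 FPKM with tamoxifen, higher in 3 of 3 numbers. Its log2 fold change of 0.48 had a block interval of 0.14 to 0.81 and missed the threshold after adjustment (adjusted p = 0.076, limma with Benjamini-Hochberg). Dhcr7, the last reductase of the route through 7-dehydrocholesterol, had 32.2, 65.0 and 22.9 FPKM untreated and 39.0, 62.3 and 32.5 FPKM with tamoxifen, a log2 fold change of 0.24 (adjusted p = 0.23, limma with the block).

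Of the 6 listed tamoxifen-binding proteins 5 passed the filter on low values, and 0 of 5 were called in either fit, with a median log2 fold change of 0.16. Tmem97, the sigma-2 receptor and a sterol-regulated protein, was the most abundant of them, at 67.8, 118 and 54.4 FPKM untreated and 87.5, 102 and 67.6 FPKM with tamoxifen. Esr1, the estrogen receptor against which the drug was developed, was close to the filter, at 0.72 to 0.90 FPKM untreated and 0.71 to 1.03 FPKM with tamoxifen.

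**Figure D3:**
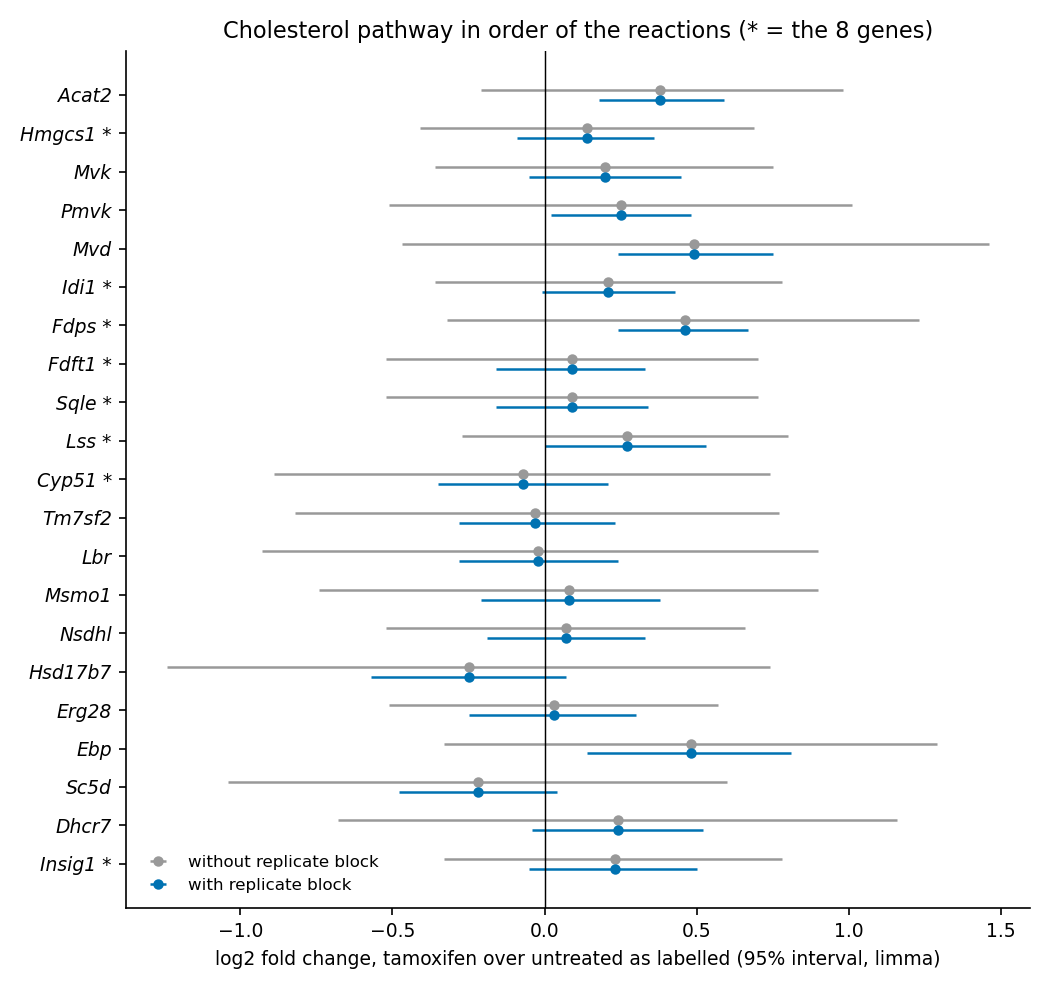
Fitted log2 fold change (x axis, tamoxifen over untreated as labelled) of 20 pathway enzymes in reaction order, with Insig1 last and an asterisk on the 8 genes. Bars are 95% limma intervals, grey without and blue with the replicate block. Every grey bar crosses 0, and among the blue bars Acat2, Mvd and Fdps pass the adjusted test.

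The SREBP regulators did not pass the test. Of 6 genes 0 were called in either fit, and all 6 log2 fold changes were below 0, with a median of -0.13. TPM left 5 and the length correction 3 of them below 0. Of all 12997 tested genes 6857 were below 0 in FPKM and 5151 in TPM. With the length correction 5814 of 11973 genes were. Srebf2, which encodes the sterol-directed factor, had 71.6, 98.9 and 52.3 FPKM in untreated replicates 1, 2 and 3 and 56.8, 89.4 and 56.8 FPKM with tamoxifen. Srebf1, its lipogenic relative, had 27.9, 55.1 and 24.9 FPKM and 21.9, 47.8 and 22.9 FPKM, lower in 3 of 3 numbers, with a log2 fold change of -0.22 (adjusted p = 0.17, limma with the block). All 6 regulators were highest in replicate 2 in FPKM, against 27.0% of all tested genes. In TPM 2 of 6 were, against 825 of the 12997 tested genes.

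Related lipid genes gave 0 calls in every list in FPKM, with and without the block. With the length correction and the block, 3 of 9 genes of the isoprenoid branches (Fnta, Fntb and Pdss2) were called higher. So was 1 of 10 fatty acid synthesis genes (Fasn), where 883 of all 11973 genes with a length were. With TPM and the block 1 of 7 genes of sterol uptake and transport was called higher, where 430 of all 12997 tested genes were. Over 7 genes of sterol uptake and transport the median log2 fold change was 0.02. Npc2, which carries cholesterol out of lysosomes, was the most abundant of that list at 41.1 to 66.3 FPKM. Over 10 genes of fatty acid synthesis the median was 0.11, and the desaturase Scd2 was the most abundant, at 124, 337 and 144 FPKM untreated and 98.5, 267 and 163 FPKM with tamoxifen. Over 9 genes of the isoprenoid branches, which draw on farnesyl diphosphate as Fdft1 does, the median was 0.09, and the prenyltransferase subunit Fnta led with 94.2, 54.0 and 66.6 FPKM untreated and 117, 72.9 and 79.4 FPKM with tamoxifen. Fnta missed the threshold at an adjusted p of 0.057 (limma with the block, Benjamini-Hochberg). Of 7 genes for LXR and sterol efflux 4 passed the filter, with a median of -0.02 and the receptor Nr1h2 the most abundant at 25.5 to 35.1 FPKM. The 8 ESC markers had a median of 0.20, with Dppa5a the highest at 1400 to 3530 FPKM, and the 8 feeder markers past the filter had a median of 0.02, with S100a4 the highest at 39.7 to 138 FPKM. The part of either marker list in the differences above was not tested.

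The pathway divided by position when the replicate numbers were compared, a split noticed in these data and given as a description. Of the 8 enzymes up to farnesyl diphosphate, Hmgcs1, Idi1 and Fdps among them, 7 were lower in replicate 2 than in replicate 1, with a median log2 difference of -0.52. Of the 14 enzymes from farnesyl diphosphate to cholesterol, 13 were higher in replicate 2, Sqle, Lss and Cyp51 among them and Fdft1 the exception, with a median of 0.66. Over all tested genes 6087 were higher and 6910 lower in replicate 2, with a median of -0.05. TPM scaling moved that median to -0.79, and the early and late enzymes to medians of -1.28 and -0.09. On that scale 6 of the 14 late enzymes were higher in replicate 2, against 1888 of the 12997 tested genes. Relative to the median of all tested genes the early enzymes lay at -0.47 in FPKM and -0.49 in TPM, and the late enzymes at 0.71 and 0.70. With quantile normalization they lay at -0.31 and 0.92, and 2 of 8 early and 14 of 14 late enzymes were higher in replicate 2. The length correction described next brought the early enzymes to -0.14, with 2 of 7 higher in replicate 2, and the late enzymes to 0.84, with 13 of 14 higher.

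**Figure D4:**
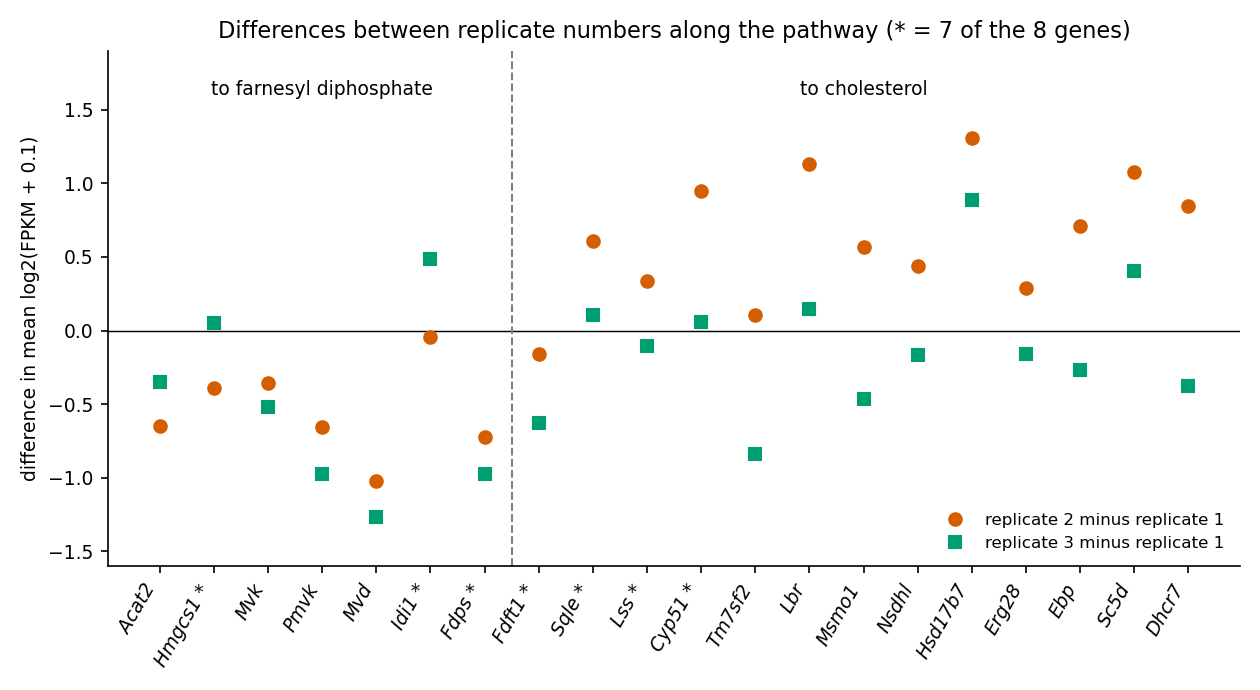
Difference in mean log2(FPKM + 0.1) of replicates 2 and 3 from replicate 1, each averaged over the untreated and tamoxifen samples, for 20 of the 22 enzymes in reaction order, with an asterisk on 7 of the 8 genes. The dashed line marks farnesyl diphosphate. Circles for replicate 2 lie below 0 in the early enzymes shown and above 0 in the late ones shown other than Fdft1. That is the FPKM scale, and TPM scaling leaves 6 of all 14 late enzymes above 0, against 1888 of all 12997 tested genes.

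Transcript length moved with the same difference. Across 11973 tested genes with a length, the longest coding transcript in GENCODE M1, Pearson's r of log2 length with the replicate 2 minus replicate 1 difference was 0.42, and with the treatment log2 fold change it was -0.27 (genes are not independent replicates). When these genes were split into 3 equal classes of length, the median treatment log2 fold change was 0.11 in the shortest, -0.02 in the middle and -0.14 in the longest class. Fdps at 1233 bases and Mvd at 1761 bases fall in the shortest class, Acat2 at 2250 bases, Sqle, Idi1 and Fdft1 in the middle class, and Lss at 4667 bases and Cyp51 at 3931 bases in the longest. Hmgcs1 had no length. After a correction for length within each sample, Acat2 and Mvd were still called with the block (adjusted p = 0.016 and 0.021, limma), Fdps at a log2 fold change of 0.33 was not (0.055), and Lss at 0.38 was (0.025). Within the shortest class, 0 of 4 early enzymes and 5 of 5 late enzymes were higher in replicate 2 than in replicate 1. In the middle class 0 of 2 early and 4 of 5 late enzymes were, and in the longest class 1 of 1 and 4 of 4. Over all genes of the shortest, middle and longest class the median of that difference was -0.45, -0.1 and 0.3.

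Outside all lists, the genes whose log2 level over the 6 samples most resembled the mean of the 8 were Rnf170, Pcmt1, Serpina3m, Snhg8 and Fkbp11, with Pearson's r of 0.984, 0.977, 0.975, 0.966 and 0.961, out of 8376 genes searched. Rnf170, the closest, had 5.29, 6.64 and 3.54 FPKM in untreated replicates 1, 2 and 3 and 6.20, 7.38 and 5.46 FPKM with tamoxifen. The mean log2 level of the 8 genes was 5.56, 5.70 and 5.31 untreated and 5.70, 5.76 and 5.64 with tamoxifen, lowest in untreated replicate 3.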

How the data were processed

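Expression was measured by directional polyA+ RNA-seq of 3 untreated and 3 tamoxifen samples, biological triplicates per the methods. The authors aligned 51-bp paired reads to mm9 with Tophat2 and deposited FPKM per refGene model from Cufflinks and Cuffdiff 2.1.1, in 1 table per sample without pooling. Rows of a gene name were summed, and 6 names with a failed status were left out. Groups came from the sample labels, which give 800 nM tamoxifen where the series text gives 800 µM. Total read numbers cannot be read from FPKM. Steps among low values gave depths of 0.654 to 0.954 relative to untreated replicate 1, and the deposited intervals of the 8 genes spanned 7.07% to 15.7% of the FPKM, with 19 of 54 values above their own upper bound, so they were not used.

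Genes with at least 0.5 FPKM in at least 3 samples were tested by limma 3.58.1 (lmFit, eBayes with trend, R 4.3.3) after a log2(FPKM + 0.1) transform, with Benjamini-Hochberg adjustment over 12997 genes, a threshold of 0.05 and 95% intervals. The replicate block was run beside it because same-numbered samples deviated together over genes. No pairing is given by the labels. The fits were tested on simulated data with planted log2 fold changes of 0.8 and 1.5 in size. There the fit without the block called none of the changed genes. The fit with the block called most of them, along with 22 false calls, a larger share of its calls than the threshold of 0.05. The simulation carried the replicate differences of the real data, which favours the block. Other steps used Python 3.11.15, pandas 2.3.3, numpy 2.4.6, scipy 1.17.1 and matplotlib 3.10.9.

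The 8 genes and the lists were chosen with earlier results of these data known. All 8 are named. Of other lists, the text names genes past the threshold in either fit, the most abundant gene of each list, and Srebf1, Srebf2, Dhcr7, Ebp and Esr1, and the 5 genes most like the set with a mean of at least 5 FPKM. Kdm2b, Ctsb, Col1a1, Col1a2, Dcn, Lum, Fap, Fntb, Pdss2 and Fasn were added after their values were seen. Some genes of the lists are counted but not reported here by name. Lists covered other mevalonate and sterol enzymes, SREBP regulators, sterol uptake and transport, LXR and efflux, fatty acid synthesis, isoprenoid branches, tamoxifen-binding proteins, ESC markers and feeder fibroblast markers. Alternatives were pseudocounts of 1 and 0.01, TPM scaling, quantile normalization, other filters, the highest row per name, no trend and each sample left out. The length correction, and the block combined with other choices except quantile normalization, and the other scalings of the replicate differences along the pathway were added after the data had been seen.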

Additional observations from a re-analysis of the deposited data

How the results depend on the processing

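Direction and side of the threshold held for Insig1 and Idi1 under all 27 alternatives. Averaged over the 8 genes, the log2 fold change stayed between 0.069 and 0.277 under 11 alternatives, and the number of the 8 called lower was 0 under all 27. The replicate block changed the call of Fdps (adjusted p = 0.025, limma) and of no other member, giving 1 member called higher, as did the block with a pseudocount of 1 (Fdps) or with the length correction (Lss). Leaving out each sample gave 0 to 0 members called higher without the block and 0 to 2 with it. Cyp51 changed sign to 0.03 with TPM scaling, also with the block, and to 0.01 with the length correction, also with the block. Leaving out single samples gave log2 fold changes from -0.01 to 0.27 for Hmgcs1, -0.04 to 0.33 for Sqle, -0.11 to 0.26 for Fdft1 and -0.30 to 0.31 for Cyp51, and with the block from -0.02 to 0.19 for Sqle and -0.16 to 0.09 for Cyp51. The cause was not tested.

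Over all genes, 3 were called higher and 1 lower without the block. The block gave 563 and 787, the block with quantile normalization 558 and 586, with a pseudocount of 1 659 and 931, with TPM scaling 430 and 336, without trend 328 and 583, and with the length correction 883 and 926. Requiring 1 FPKM or more in every one of the 6 samples gave 0 and 0, and a pseudocount of 1 gave 0 lower. Leaving out each sample gave 0 to 5 higher and 0 to 7 lower. With the block the counts without untreated replicates 1, 2 and 3 were 776, 65 and 405 higher and 989, 81 and 525 lower, and without tamoxifen replicates 1, 2 and 3 they were 728, 36 and 369 higher and 1016, 68 and 561 lower. Omitting either sample of a number removes the same pair from the block fit, so these are not independent checks. Genes differing among replicate numbers ranged from 4718 (without untreated replicate 2) to 9176, and 4 to 8 of the 8 members differed. TPM scaling moved the median log2 fold change of all genes from -0.02 to 0.08 and that of the replicate 2 minus replicate 1 difference from -0.05 to -0.79. Of the other 15 enzymes, 2 were called with the block and 1 with quantile normalization added.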
